A study of Rattus norvegicus with 9 samples.

Results

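Ion channels, ion pumps and gap junction proteins set how charged ions cross cell membranes, and 72 of the 22512 genes in the expression table carry a symbol of these families. They were chosen by the start of the symbol: KCN, CACN, SCN, HCN, CLCN, CLIC, TRP, CFTR, ITPR, GJA, GJB, GJC, ATP1A, ATP1B, ATP2A and ATP2B. The choice also takes accessory subunits, the sodium-potassium and calcium pumps, connexins and the ITPR-interacting genes ITPRID1 and ITPRID2, which are not channels themselves. Of the 72, 22 were placed in a cardiac list of genes known for the heartbeat and 16 in a list called broadly expressed, not all of which are found in most tissues. The other 34 were placed in a non-cardiac list (4 of skeletal muscle, 10 of epithelia and kidney, 20 neuronal, sensory or other). Most of the table, 20346 entries, has only a LOC number, so channels without a symbol are not covered here.

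In heart muscle, sodium, calcium and potassium channels shape the action potential in turn, connexins carry it from cell to cell, and the calcium pump of the sarcoplasmic reticulum returns calcium to its store after each beat. Cardiac fibroblasts (CFs), the collagen-producing cells between the muscle cells, do not fire action potentials but are known to express potassium channels and connexins. The peptide hormone angiotensin II (AngII) activates CFs. Vericiguat is a drug that raises cGMP by stimulating soluble guanylate cyclase.

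RNA was sequenced from CFs of neonatal rats, cultured for 2 or 3 passages, with 3 libraries in each of 3 groups. The blank group had neither agent, the AngII group had AngII at 0.1 µM for 72 h, and the vericiguat + AngII treatment group had vericiguat at 1.0 µM for 24 h followed by AngII at 0.1 µM for 72 h, as the labels give it. The methods text of the study describes the order for another assay of these cells as AngII first and vericiguat second. The sources do not say whether the 3 libraries of a group came from separate cultures, so p-values measure only the spread between these libraries, which may be technical.

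The values are FPKM, fragments scaled to transcript length and to the library's total, and the table holds no counts, so the depth is unknown. The submitters' processing notes name the genome build OryCun2.0, an assembly of the rabbit, although the samples are labelled as rat. The part of this in the values, and in how reads of related channel genes were divided, was not tested. Across the whole table, 13 entries named KEF51 held 96.7% to 97.9% of all FPKM in the blank and AngII libraries. In the treated libraries they held 45.3% to 52.3%. The tests described below were also run with libraries rescaled to the same sum without these entries. Between the treated group and AngII, 32 of 32 tested channel genes were called on the deposited values and 22 after this rescaling. Over all 10908 tested genes, 10869 calls became 6819. What gave rise to the KEF51 levels was not tested. With the KEF51 entries left out, the summed FPKM was 30992 to 57618 in the 6 blank and AngII libraries and 426296 to 433771 in the 3 treated libraries. Between 260 and 1542 genes reached an FPKM of 1 in each blank or AngII library, and between 11280 and 11565 in each treated library. The second blank library was the lowest, with 5511 genes above 0.

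The markers of cell types were also at very different levels. Of 14 fibroblast markers, 4 are listed by symbol (COL1A2, DCN, LUM and FN1), with summed FPKM of 1.70 to 24.7 in the blank group, 7.09 to 25.7 in the AngII group and 368 to 527 in the treated group. Of 15 cardiomyocyte markers, 6 are listed, with sums of 6.80 to 9.06, 45.0 to 109 and 3812 to 6077. In the treated group MYH7, the slow cardiac myosin heavy chain, had FPKM of 4346, 3645 and 2766, while NPPA, which encodes atrial natriuretic peptide, had 0.191, 0 and 0.449. The listed endothelial markers (2 of 8) summed to 0.054 to 0.421 in the blank and AngII groups and 81.3 to 86.2 in the treated group, those of macrophages and blood (3 of 8, mostly the globins HBA and HBB2) to 154 to 399 and 8372 to 15135. All of these marker sums were higher in the treated group, as the channels described here were, and their part in the results was not tested. In RNA from a whole culture, fewer cells of a type and less RNA per cell cannot be told apart.

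All but a few of the genes were near 0 in the blank and AngII groups. In the blank group 41 of the 72 were listed at 0 in all 3 libraries (13 cardiac, 4 broadly expressed, 24 non-cardiac), and in the AngII group 29 were (7, 1 and 21). In the treated group only 9 were, all of them non-cardiac, and 34 had a mean FPKM of at least 1. All 3 treated libraries were above all 6 others for 51 of the 72 genes, made up of 18 of 22 cardiac, 15 of 16 broadly expressed and 18 of 34 non-cardiac genes. The same was true of 66.3% of all listed genes, so this count is close to that of the table as a whole.

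**Figure D1:**
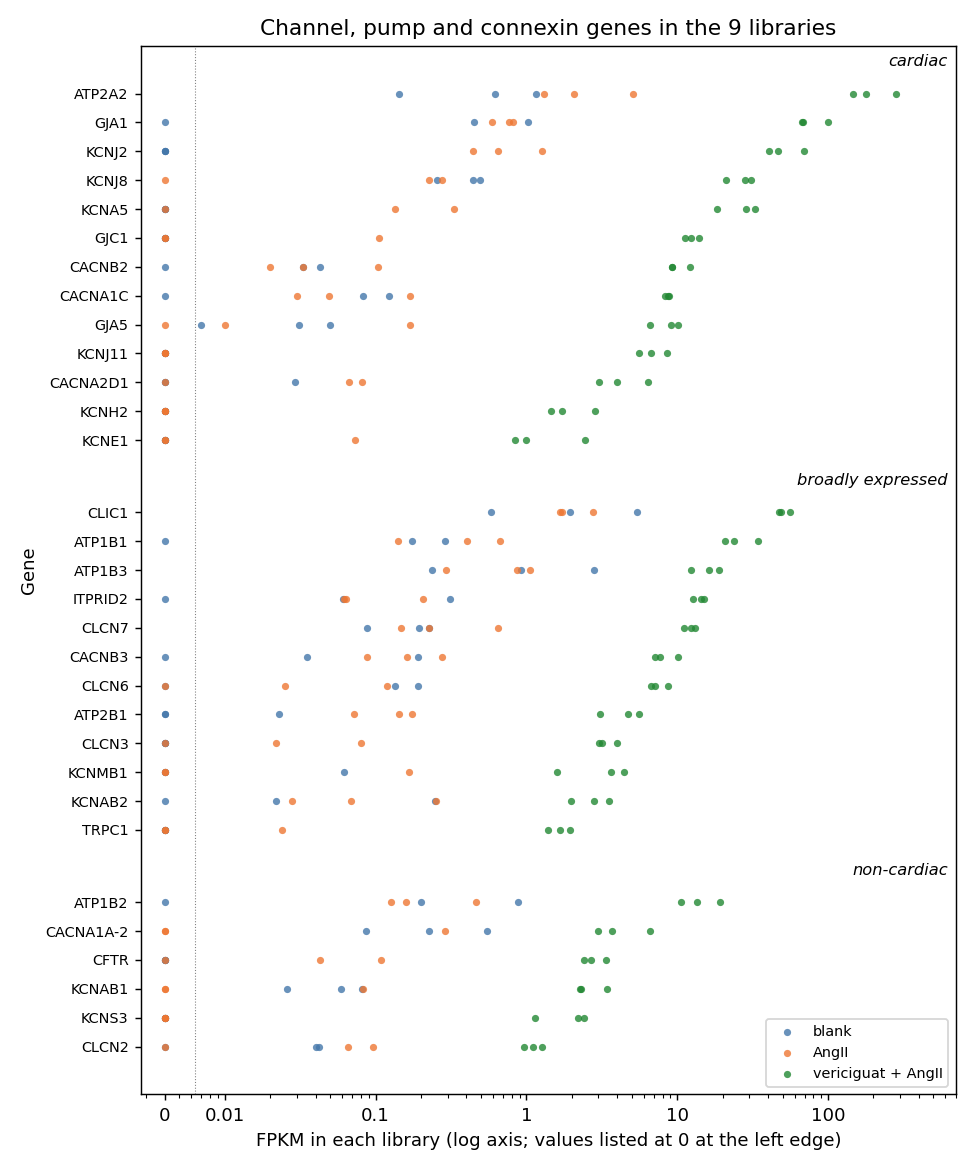
FPKM of 31 of the 34 genes with a mean of at least 1 in the treated group, on a log axis, 1 point per library, with values listed at 0 placed left of the dotted line. Green points (vericiguat + AngII) lie to the right of all blue (blank) and orange (AngII) points for each gene, and many blank and AngII points are at 0.

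Within the treated group, the cardiac and the broadly expressed genes were at similar levels and the non-cardiac genes were far lower. The median of the mean FPKM was 5.70 over the 22 cardiac genes, 5.97 over the 16 broadly expressed genes and 0.0955 over the 34 non-cardiac genes, beside 1.09 over all listed genes without KEF51. A mean of 10 or more was reached by 8 cardiac, 6 broadly expressed and 1 non-cardiac gene. Ranked among all genes of the same group, the median member stood at the 71.2 percentile for the cardiac list, 71.9 for the broadly expressed list and 32.0 for the non-cardiac list. In the AngII group these percentiles were 53.7, 69.9 and 27.4, and in the blank group 32.4, 60.7 and 32.4, where many genes tie at 0. The lists were written with earlier results of these data known.

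The highest value was that of a pump. ATP2A2, which encodes SERCA2, the pump that refills the sarcoplasmic reticulum, had FPKM of 1.16, 0.143 and 0.620 in blank, 2.05, 5.09 and 1.31 in AngII and 280, 179 and 146 after vericiguat + AngII. It was the most abundant of the 72 genes in every treated library, and the AngII values lay above all blank values. AngII library 2, with the highest ATP2A2 value of its group, also had the highest MYH6 (44.9), MYH7 (55.7), TTN (0.779) and RYR2 (0.225) of its group. It had the lowest PLN, at 7.57 against 32.6 and 25.8 in the other AngII libraries, and NPPA was listed at 0 there.

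Of the cardiac potassium channels and their accessory subunits, only KCNJ8 was listed above 0 in blank. KCNJ2 encodes Kir2.1, which carries the inward rectifier current that holds the resting potential. No blank library listed it above 0, while it had 0.440, 1.28 and 0.648 in AngII and 68.9, 40.4 and 46.4 in the treated group. KCNJ8, the pore of an ATP-sensitive potassium channel known from vascular cells, was instead listed in all 3 blank libraries, at 0.443, 0.255 and 0.492. Its AngII values were 0.227, 0 and 0.276, and its treated values were 21.2, 28.3 and 30.8. The listed markers of smooth muscle and pericytes (ACTA2 and MYH11, 2 of 8) summed to 0.382 to 21.1 in blank, 0.3 to 1.20 in AngII and 191 to 302 in the treated group. By blank library, ACTA2 had 7.79, 0.210 and 3.83 and MYH11 had 13.3, 0.172 and 6.26, a far wider spread than that of KCNJ8. The part of these markers in the levels of KCNJ8 was not tested. The related subunit KCNJ11, known from heart muscle and pancreatic beta cells, was listed at 0 in all 6 blank and AngII libraries and had 8.53, 5.62 and 6.68 in the treated group. KCNJ2, KCNJ8 and KCNJ11 are all inward rectifiers, and they differed in whether they were listed in the blank and AngII groups.

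KCNA5 encodes Kv1.5, a delayed rectifier prominent in atrial muscle. It was listed at 0 in blank, at 0.135, 0 and 0.330 in AngII and at 32.9, 18.3 and 28.6 in the treated group. The other voltage-gated potassium channels of the cardiac list and their accessory subunits were much lower. KCNH2 (hERG, the rapid delayed rectifier) had 2.83, 1.72 and 1.45 in the treated libraries and was listed at 0 in the other 6. KCND3, a pore subunit of the transient outward current, had 1.10, 0.583 and 0.566, and KCNA4, another, had 0.797, 0.361 and 0.363. KCND2 (0.270, 0.075 and 0) and the accessory subunit KCNE2 (0.074, 0 and 0) were barely listed. KCNE1, a partner of the slow delayed rectifier, had 2.44, 0.997 and 0.838, and thus passed 1 in a single library. KCNA5 was in this way the highest of the voltage-gated potassium channel genes listed by symbol in the treated group.

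The subunits of the L-type calcium channel, which lets in the calcium that triggers contraction, were listed together in the treated group. The pore CACNA1C had 8.67, 8.26 and 8.84, the beta subunit CACNB2 had 12.1, 9.17 and 9.21, and the alpha-2-delta subunit CACNA2D1 had 6.36, 3.04 and 3.99. In the blank and AngII groups none of the 3 passed an FPKM of 0.17 in any library. CACNA1C varied least of the genes above 1, with 8.59 ± 0.297 (SD, n = 3) in the treated group and its highest library 1.07 times its lowest. CACNA1D, a pore of pacemaker and neuroendocrine cells, had 0.114, 0.164 and 0.077 in the treated group, and its AngII values of 0.016, 0.040 and 0.098 overlapped them.

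The connexins of the heart were all present in the treated libraries. GJA1 (connexin 43, of working muscle and also of fibroblasts) had 1.02, 0 and 0.447 in blank, 0.811, 0.763 and 0.592 in AngII and 99.2, 67.0 and 68.1 in the treated group. GJC1 (connexin 45) was listed at 0 in 5 of the 6 blank and AngII libraries, the exception being 0.106 in AngII library 1, and had 11.2, 13.9 and 12.3 in the treated group. GJA5 (connexin 40, of atria, conduction fibres and vessels) did not pass 0.17 in any blank or AngII library and had 6.55, 9.03 and 10.1 in the treated group. GJA1 held 84.8%, 74.5% and 75.3% of the summed FPKM of these 3 connexins in the treated libraries.

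The pacemaker channel HCN4 (0, 0 and 0.042) stayed below 0.1 in the treated libraries and was listed at 0 in the others. The cardiac genes thus ranged from 0.014 for HCN4 to 202 for ATP2A2 in mean FPKM of the treated group.

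Among the broadly expressed genes, CLIC1, an intracellular chloride channel protein, led in the blank group with 5.37, 0.581 and 1.93, and had 1.68, 2.76 and 1.73 in AngII and 47.2, 55.5 and 48.9 in the treated group. The sodium-potassium pump subunit ATP1B1 had 34.4, 23.8 and 20.6 in the treated group after at most 0.668 in the others, and ATP1B3 had 2.79, 0.235 and 0.926 in blank, 0.863, 0.295 and 1.05 in AngII and 12.3, 19.0 and 16.2 in the treated group. Means in the treated group were 14.0 ± 1.23 for ITPRID2, 12.2 ± 1.11 for the lysosomal chloride transporter CLCN7, 8.30 ± 1.57 for the calcium channel beta subunit CACNB3, 7.48 ± 1.03 for the endosomal transporter CLCN6 and 4.47 ± 1.26 for the plasma membrane calcium pump ATP2B1 (SD, n = 3).

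Only 6 of the 34 non-cardiac genes had a mean of at least 1 in the treated group. The highest was ATP1B2, a beta subunit of the pump best known from glia, with 0.877, 0 and 0.199 in blank, 0.127, 0.159 and 0.462 in AngII and 19.3, 10.6 and 13.6 in the treated group. CFTR, the chloride channel of epithelia, had 3.38, 2.42 and 2.68 in the treated group and at most 0.109 in the others, while the epithelial keratin KRT8 had 0.148, 0.660 and 0.260 in the same libraries. The others were CACNA1A-2, KCNAB1, KCNS3 and CLCN2, with means of 1.11 to 4.41. CACNA1A-2 shares its base name with CACNA1A (0.547, 0.873 and 0.917 in the treated group), is the only one of the 72 names that did not match a rat symbol, and its values are uncertain where reads could be divided between the 2 entries. Of skeletal muscle, CACNB1 had 0.693, 0.808 and 0.743, ATP2A1 (SERCA1) had 0.186, 0.458 and 0.306, and CACNA1S reached 0.025 in a single library. TRPV6 was listed in only 1 library, AngII library 3, at 0.238. Listed at 0 in every library were CLIC6, GJB1, TRPV5, KCNA10, TRPC5, KCNK10, ITPRID1 and CACNG1, all non-cardiac.

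A share within a library does not depend on how libraries are scaled to each other, so the summed FPKM of the 72 genes was divided among the classes. The cardiac share of the 3 blank libraries was 27.6%, 30.8% and 37.7% (32.0% ± 5.17, SD, n = 3). It was 43.3%, 55.0% and 34.0% with AngII (44.1% ± 10.5) and 67.2%, 61.6% and 61.4% with vericiguat + AngII (63.4% ± 3.27). The treated libraries were above all others, and the AngII and blank groups overlapped. The treated and AngII libraries overlapped, however, with the broadly expressed genes counted as cardiac (94.4% to 95.8% against 89.2% to 96.4%), with them left out (91.6% to 94.2% against 75.9% to 92.4%, an alternative chosen after seeing the data), and when genes at FPKM 1 or more were counted in place of summed (41.2% to 44.4% against 25% to 50%). The broadly expressed genes held 52.4% to 62.1% in blank, 40.2% to 55.2% in AngII and 28.7% to 34.2% in the treated group. The non-cardiac genes held 8.84% to 10.3%, 3.56% to 10.8% and 4.16% to 5.63%. No test is given for these shares, since the lists were chosen with results known.

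**Figure D2:**
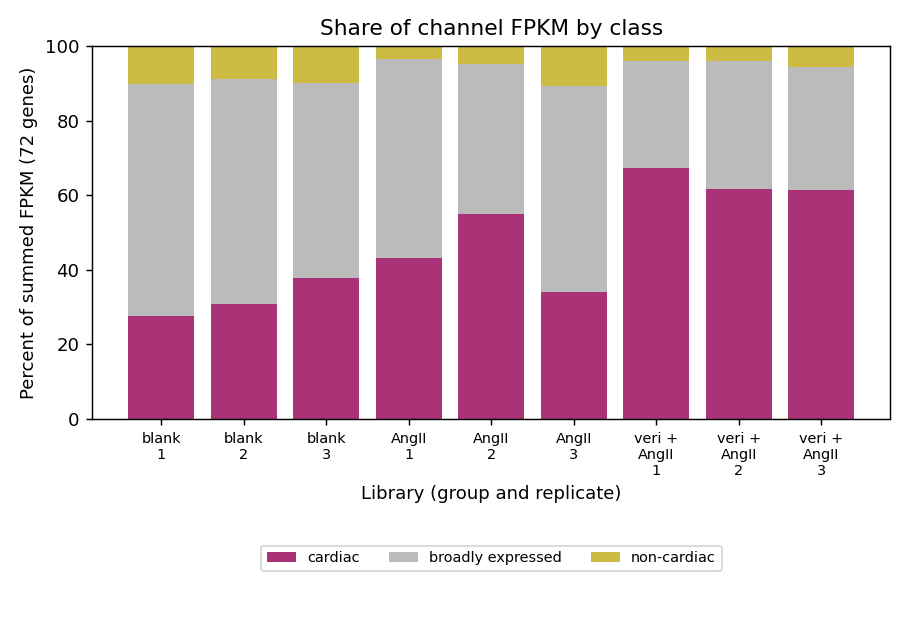
Stacked bars of the share of the summed FPKM of the 72 genes held by the cardiac, broadly expressed and non-cardiac classes, for each library, in percent. The cardiac share is 27.6% to 37.7% in blank, 34.0% to 55.0% in AngII and 61.4% to 67.2% in vericiguat + AngII.

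ATP2A2 weighed heavily in these shares. Without it the cardiac share was 26.6% ± 4.96 in blank, 27.5% ± 3.18 in AngII and 49.8% ± 2.01 in the treated group, so that the means of blank and AngII were nearly the same. With all pumps left out, the channels, connexins and their accessory subunits alone gave 24.7% ± 5.70, 40.1% ± 2.95 and 66.1% ± 3.93, and the 3 groups did not overlap. KCNJ2, the Kir2.1 channel described above, was listed in each AngII library and in no blank library.

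For tests, limma was fitted on log2(FPKM + 1) over the 10908 genes that reached an FPKM of 1 in 3 or more libraries. Calls needed a log2 fold change of 1 or more in size together with an adjusted p (Benjamini-Hochberg) below 0.05. This left 14 cardiac, 13 broadly expressed and 5 non-cardiac genes, 32 in all. Each of the 32 had an FPKM of at least 1 in all 3 treated libraries, so each passed through the group in which it was high, and their count of calls in that group is no support for a change of these genes in particular. Fold changes on this scale understate the change of genes with low FPKM.

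On the values as deposited, no member was called between AngII and blank, where 1.55% of all tested genes were called in either direction. At an unadjusted p below 0.05 there were 4 of 32 members, beside 14.4% of all tested genes, and the lowest adjusted p by limma was 0.140, for KCNJ2. ATP2A2 had a log2 fold change of 1.14 (SE 0.449, limma adjusted p 0.268). Against AngII the treated group was called higher for 32 of 32 members, beside 99.5% of all tested genes, and against blank for 32 of 32, beside 99.3%. The largest log2 fold changes against AngII were 5.80 (SE 0.449) for ATP2A2 and 5.50 (SE 0.291) for GJA1, and against blank 6.94 and 5.77 for the same genes. The median over all tested genes was 2.76 against AngII, beside 3.55 for the cardiac, 3.01 for the broadly expressed and 1.86 for the non-cardiac members. Both comparisons share the treated libraries. In a two-sided exact permutation test of single members, 3 libraries against 3 cannot give a p below 0.1. That value was reached by 32 of 32 members in each of these comparisons and by 5 of 32 between AngII and blank. The share of all tested genes at this value was not computed, so these counts are no result about the members. The 32 had also passed the filter through the treated libraries.

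Because nearly all genes moved together, the members were also set against the typical gene. Each library was divided by a median-ratio size factor from the 3770 genes above 0 in all 9 libraries, which was 0.0784 to 0.462 in blank, 0.296 to 0.447 in AngII and 14.0 to 15.9 in the treated group. On this relative scale the median log2 fold change over all tested genes was 0.08 for AngII against blank, 0.08 for the treated group against AngII and 0.18 for the treated group against blank. The cardiac members had medians of 0.05, 0.56 and 0.54, the broadly expressed members 0.05, 0.10 and 0.23, and the non-cardiac members -0.05, 0.14 and 0.18. Without genes listed at 0 in a compared group, the cardiac medians were 0.03, 0.66 and 0.42, beside 0.05, 0.06 and 0.13 over all tested genes. The pseudocount of 1 draws the fold changes of genes with low relative levels toward 0. With a pseudocount of 0.1 the medians over all tested genes were 0.34, 0.43 and 0.86, and with 0.01 they were 0.65, 0.84 and 1.70. Class medians were not computed with these pseudocounts, and the part of expression level in the differences between classes was not tested.

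Between AngII and blank, 3 of 32 members were called on the relative scale, 2 higher and 1 lower, beside 5.17% of tested genes called higher and 3.25% called lower. KCNJ2 had relative levels of 0, 0 and 0 in blank and 1.49, 2.86 and 1.96 in AngII (limma adjusted p 0.00235), and no fold is given against a group listed at 0. ATP2A2 had relative levels of 2.51, 1.82 and 2.37 in blank and 6.94, 11.4 and 3.94 in AngII, a log2 fold change of 1.29 (SE 0.362, limma adjusted p 0.0417). This call of ATP2A2 was kept under 6 of 21 alternatives, and leaving out any library but AngII replicate 3 gave an adjusted p of 0.0502 to 0.112. On the values as deposited, the 6 listed cardiomyocyte markers summed to 6.80 to 9.06 in blank and 45.0 to 109 in AngII. Of these, MYH7 had FPKM of 3.97, 1.38 and 2.45 in blank and 9.38, 55.7 and 20.7 in AngII. PLN was not called on the relative scale (log2 fold change 1.15, SE 0.841, limma adjusted p 0.365). NPPA was listed at 0 in all blank libraries and at 0, 0 and 0.229 in AngII. The part of these cell type markers in the result was not tested.

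Between the treated group and AngII, no member was called on the relative scale by limma, beside 2.30% of tested genes called higher and 1.87% called lower. At an unadjusted p below 0.05 there were 18 of 32 members, beside 29.5% of all tested genes. Without the fold threshold 9 of 32 members had an adjusted p below 0.05 by limma, all higher, beside 13.1% of tested genes higher and 2.73% lower. Among them were the cardiac KCNJ11, KCNH2, GJC1, CACNB2, KCNA5 and GJA5, the broadly expressed TRPC1 and the non-cardiac KCNS3. KCNJ11, KCNH2 and KCNS3 were listed at 0 in all blank and AngII libraries, so they had no spread there and no fold is given. TRPC1 was above 0 in only AngII library 2, at 0.024, and its log2 fold change was 0.13. Those of GJC1, CACNB2, KCNA5 and GJA5 were 0.74, 0.57, 0.96 and 0.49, below the fold threshold. All of these members passed the filter through the treated libraries, so the list is no support for a change of these genes in particular. GJA1 and ATP2A2 had log2 fold changes of 1.03 (SE 0.404) and 0.86 (SE 0.362), and neither passed the adjusted threshold by limma. The count of 0 became 1 without blank replicate 1, 2 without blank replicate 2, and 1 without AngII replicate 2 or 3. Over all tested genes, 455 calls became 464, 672, 754 and 450 in the same order.

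Between the treated group and blank, 7 of 32 members were called on the relative scale, 5 higher and 2 lower, beside 6.03% of tested genes called higher and 3.47% called lower. The cardiac members called were 4 of 14, all higher. ATP2A2 had relative levels of 17.7, 12.5 and 10.5 in the treated group and a log2 fold change of 2.14 (SE 0.362, limma adjusted p 0.00217), and GJA1 had 2.21, 0 and 1.71 in blank and 6.25, 4.68 and 4.87 in the treated group (1.60, SE 0.404, limma adjusted p 0.0149). Without treated replicate 1 the adjusted p of GJA1 by limma was 0.0568, and with pseudocounts of 0.1 and 0.01 it was 0.0597 and 0.140. KCNJ2, with 4.34, 2.82 and 3.32, and KCNA5, with 2.07, 1.28 and 2.04, were listed at 0 in blank (limma adjusted p 0.000308 and 0.00245).

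Of the 13 broadly expressed members, 1 was called higher and 2 lower against blank, and of the 5 non-cardiac members none was called. CLIC1 had 11.6, 7.41 and 7.37 in blank and 2.97, 3.88 and 3.50 in the treated group, a log2 fold change of -1.12 (SE 0.259, limma adjusted p 0.0102), which turned to 4.84 with libraries rescaled to the same sum and to 1.02 with the KEF51 entries left out of that sum. ATP1B3 had 6.03, 3.00 and 3.53 in blank and 0.774, 1.33 and 1.16 in the treated group, a log2 fold change of -1.28 (SE 0.375, limma adjusted p 0.0283), which turned to 3.73 and 0.36 under the same rescalings. With the same sum nearly all tested genes, 10876 of 10908, were called higher. Without KEF51 entries neither gene was called (limma adjusted p 0.185 for CLIC1 and 0.615 for ATP1B3). Without blank replicate 1 the log2 fold change of CLIC1 was -0.95 and without treated replicate 1 it was -0.98, both below the fold threshold. Without blank replicate 1 or 3, or without any treated replicate, ATP1B3 had a limma adjusted p of 0.0596 to 0.108. The count of called members was 4 of 32 without treated replicate 1, beside 601 of 10908 tested genes.

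**Figure D3:**
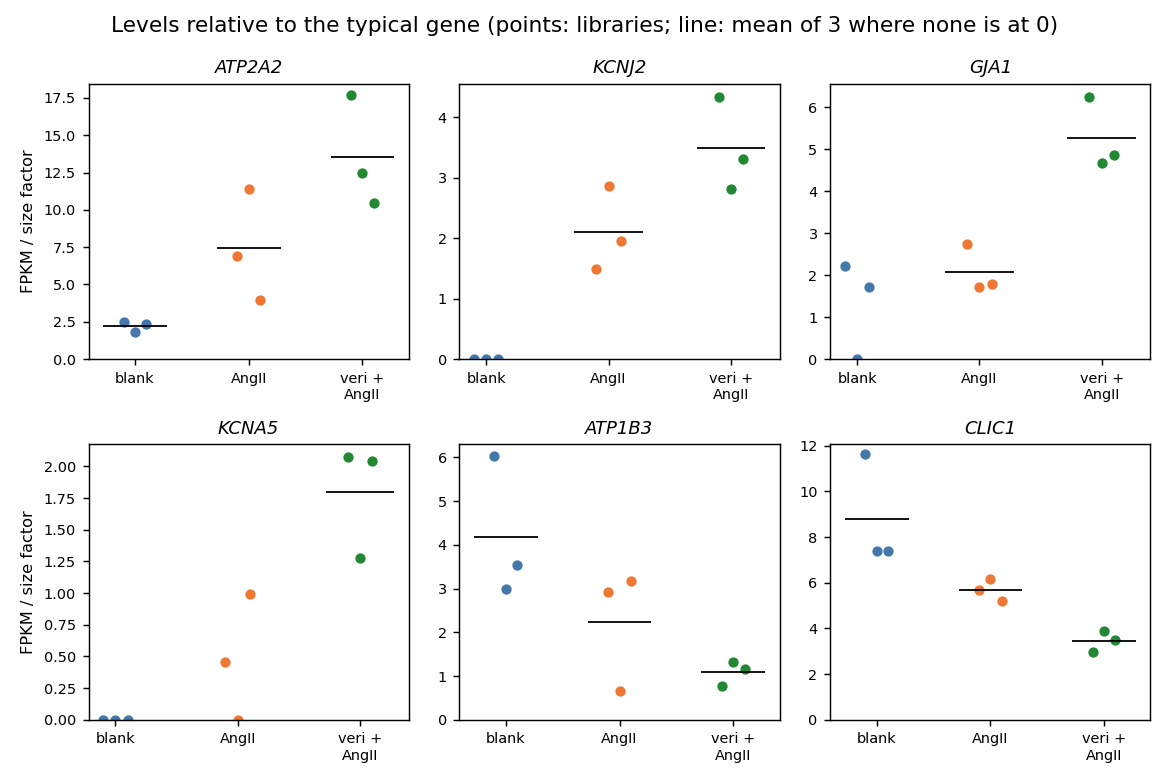
Relative levels (FPKM divided by the library's size factor) of 6 of the 8 members called in any comparison on the relative scale, 1 point per library, with a line at the mean of groups without a value of 0. ATP2A2, KCNJ2, GJA1 and KCNA5 reach their highest values in vericiguat + AngII, and ATP1B3 and CLIC1 are lower in vericiguat + AngII than in blank on this scale, a direction that turned with libraries rescaled to the same sum.

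Shares of isoforms within a protein family again need no scaling between libraries. These families were chosen after their values were seen, so the shares are given as a description with no test. Among the beta subunits of the sodium-potassium pump, ATP1B1 to ATP1B3, ATP1B3 held 70.5%, 100% and 71.2% in blank, 52.1%, 49.7% and 54.7% in AngII and 18.6%, 35.5% and 32.1% in the treated group, while ATP1B1 held 7.31%, 0% and 13.5%, then 40.3%, 23.6% and 21.2%, then 52.2%, 44.5% and 40.9%. The groups did not overlap for either subunit, and the value of 100% comes from blank library 2, where ATP1B1 and ATP1B2 were listed at 0.

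**Figure D4:**
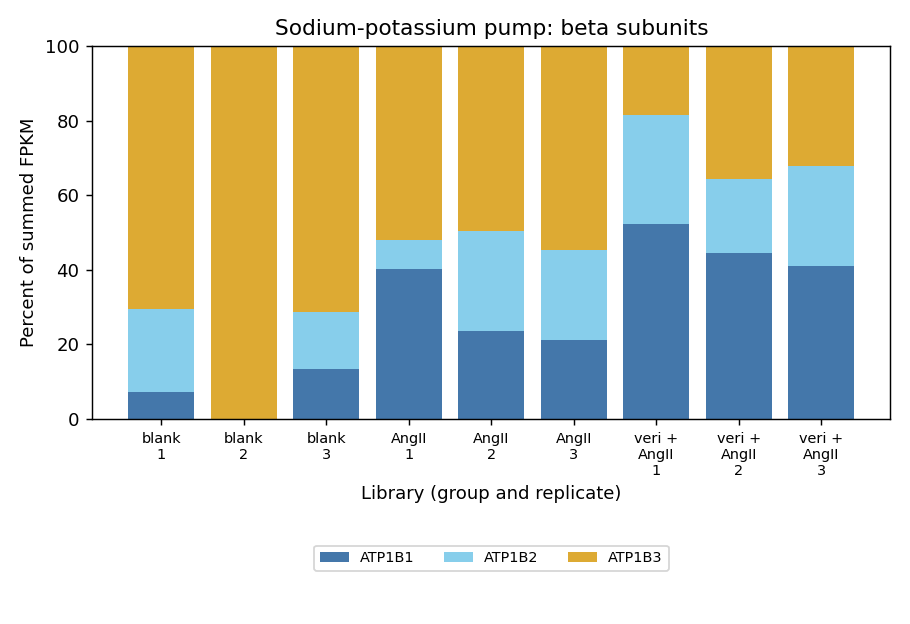
Stacked bars of the share of ATP1B1, ATP1B2 and ATP1B3 in the summed FPKM of these beta subunits of the sodium-potassium pump, for each library, in percent. ATP1B3 is at least 70.5% in blank and at most 35.5% in vericiguat + AngII.

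Shares in 3 other families were computed the same way. KCNJ2 held 0% of the summed FPKM of KCNJ2 and KCNJ8 in each blank library, 66.0% to 100% in AngII and 76.5%, 58.7% and 60.1% in the treated group, where AngII and treated libraries overlapped. Among the calcium channel beta subunits CACNB1 to CACNB3, the cardiac CACNB2 held 18.3%, 22.9% and 11.0% in AngII and 60.8%, 51.8% and 46.0% in the treated group. In blank it held 16.5% in library 1 and 48.5% in library 3, the latter within the treated range, and in library 2 none of the 3 was listed above 0. ATP2A2 held 88.3% to 100% of the summed FPKM of ATP2A2 and ATP2B1 in all 9 libraries.

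The treated libraries also differed among themselves. The highest of the 3 was library 1 for 8 of 14 cardiac, 6 of 13 broadly expressed and 2 of 5 non-cardiac members at 1 or more in all 3, beside 56.2% of all genes so measured. The highest treated library was 1.92 times the lowest for ATP2A2, 1.71 times for KCNJ2, 1.79 times for KCNA5 and 1.48 times for GJA1. Library 3 was the highest for 4 of 14 cardiac, 5 of 13 broadly expressed and 3 of 5 non-cardiac members, beside 24.8% of all genes so measured. Among these members, KCNJ8, GJA5, CACNB3, KCNS3 and CACNA1A-2 had their lowest value in library 1, the reverse of ATP2A2.

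Of 30 partners of channels in heart muscle that were listed beside the members, 12 are in the table and 11 were tested. They include RYR2, the calcium release channel, PLN, the inhibitor of SERCA2, and CASQ2, TRDN, HRC and JPH2, proteins of the calcium store and its junctions. On the values as deposited, all 11 were called higher in the treated group than in AngII and than in blank, beside 99.5% and 99.3% of tested genes. On the relative scale, 4 of 11 were called higher in AngII than in blank, beside 5.17% of tested genes. Among them were CASQ2, with a log2 fold change of 1.76 (SE 0.272, limma adjusted p 0.00348), TRDN with 2.23 and HRC with 2.58. Between the treated group and AngII, JPH2 and CASQ2 were called higher (1.00 and 1.01, both close to the fold threshold), beside 2.30% of tested genes. Called lower were 2, among them TRDN (-1.86), beside 1.87% of tested genes. JPH2 was listed at 0 in all blank libraries and at 0, 0 and 0.254 in AngII. Between the treated group and blank, 4 of 11 were called, all higher (JPH2, CASQ2, RYR2 and HRC), beside 6.03% of tested genes called higher. The median log2 fold change was 0.90 over the 11, beside 0.18 over all tested genes. With a pseudocount of 0.1 the latter was 0.86, and the median of the partners was not computed with it.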

How the data were processed

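RNA-seq of 9 libraries of cultured neonatal rat CFs was analysed, with 3 in each of 3 groups taken from the labels. Values are FPKM per gene, deposited by the authors after read filtering, alignment and the addition of newly predicted transcripts to the reference. The submitters' processing notes name FastQC 0.11.9, Trimmomatic 0.39, HISAT2 2.2.1, featureCounts 2.0.1 and the build OryCun2.0. Fits used limma 3.58.1 in R 4.3.3 (lmFit, eBayes with trend, all 9 libraries in 1 fit, pseudocount 1), were tested on simulated data, and were adjusted over all 10908 tested genes. Members and lists were chosen with earlier results of these data known. Named with values were all cardiac members, the 10 other members highest in the treated group, the called members that changed most, and those above 1 in any blank or AngII library; further genes were named after their values were seen. Some genes that the rule takes are not reported here by name, and remain in the counts, medians and shares. Same-numbered libraries had correlations of -0.0616 to 0.0646, and the numbers were not used as pairs in the main fits. With most genes near 0 in the blank and AngII groups, low correlations cannot exclude that same-numbered libraries share a culture. No sequence was needed for these comparisons. Alternatives were other scalings, pseudocounts, filters, fits and left-out libraries.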

Additional observations from a re-analysis of the deposited data

How the results depend on the processing

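The counts of called members depended mainly on the scale between libraries. On the deposited scale, the count for AngII against blank (0) became 2 with quantile normalization, 1 with the same sum without KEF51 entries, 1 and 2 with pseudocounts of 0.1 and 0.01, and 3 with median-ratio scaling. Over all 10908 tested genes, 169 calls became 802, 224, 969, 1190 and 919 in the same order. The 32 calls of the treated group became 0 against AngII and 7 against blank with quantile normalization or median-ratio scaling, and 11 in each with a mean FPKM of at least 5, where 11 members were tested. Over all tested genes, 10869 calls against AngII became 378 and 455 with these scalings, and 10845 against blank became 944 and 1036. With the mean filter 3113 and 3110 of 3124 tested genes were called. On the relative scale, the count for AngII against blank (3) became 0 with the same sum over all entries, 1 without KEF51 entries, 5 with a pseudocount of 0.01 and 5 without the fold threshold. Over all tested genes, 919 calls became 28, 224, 1352 and 1618 in the same order. The count against AngII (0) became 1 with quantile normalization, 32 with the same sum, 22 without KEF51 entries, 6 and 5 with pseudocounts of 0.1 and 0.01, 1 with only the compared groups, 9 without the fold threshold and 4 with size factors from genes at FPKM 1 or more. Over all tested genes, 455 calls became 420, 10887, 6819, 1165, 840, 471, 1723 and 674 in the same order. The count against blank (7) became 32, 22, 17, 14 and 19 with the same sum, without KEF51 entries, with pseudocounts of 0.1 and 0.01, and without the fold threshold. Over all tested genes, 1036 calls became 10882, 7024, 3295, 3091 and 3418 in the same order. The direction of ATP1B3 against blank turned with the same sum (3.73) and without KEF51 entries (0.36), and that of CLIC1 likewise (4.84 and 1.02).

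Leaving out 1 library in turn gave 0 to 0, 32 to 32 and 32 to 32 calls on the deposited scale and 2 to 3, 0 to 2 and 4 to 9 on the relative scale, in the order AngII against blank, treated against AngII, treated against blank. Over all tested genes the relative scale gave 566 to 1396, 191 to 754 and 601 to 1393 calls in that order. The cardiac share ranged from 29.2% to 34.2%, 38.6% to 49.1% and 61.5% to 64.4% in blank, AngII and treated. With the replicate block the calls were 0, 32 and 32 on the deposited scale and 2, 0 and 7 on the relative scale, where ATP2A2 was lost between AngII and blank (limma adjusted p 0.0593). Over all tested genes the block gave 834, 412 and 1016 calls on the relative scale. The means of the cardiac share without ATP2A2 were 26.6%, 27.5% and 49.8%, with the broadly expressed genes counted as cardiac 90.3%, 93.6% and 95.3%, and, chosen after seeing the data, with the broadly expressed genes left out 76.6%, 86.8% and 93.1%. It was 24.7% in blank with the pumps left out, and when members at FPKM 1 or more were counted it was 60% and 0% in 2 blank libraries (the other had no such member), 36.1% in AngII and 43.1% in the treated group. Treated and AngII libraries overlapped under that count and under both settings of the broadly expressed genes. Of the recomputed counts and shares, 106 stayed within 1.5 times the count or 1 SD of the share, and 44 did not. Of the recomputed gene values, 296 kept their direction and their side of the threshold, 36 kept the direction but no longer passed it, and 4 reversed. Why the values moved was not tested. Without counts, the error from depth is unknown, and values below an FPKM of 0.1 in the blank and AngII groups are limited most.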
